A study of Mus musculus with 12 samples.

Results

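Inhibitor-treated knockout neurons were compared with vehicle-treated wild-type neurons, the comparison that asks how far knockout neurons given a ROCK inhibitor still stand from untreated wild type. It uses 6 of the 12 libraries of the study: 3 of Daam1 microexon knockout (KO) neurons given 10 µM Y-27632 for 2 h, and 3 of wild-type (WT) neurons given water, the vehicle, for the same 2 h. The libraries were chosen by their labels alone. All are poly(A) RNA libraries of neurons differentiated in culture from mouse embryonic stem cells and labelled as glutamatergic, taken at day 21 in vitro. Each group holds 1 library from each of 3 labelled cell lines, and each line has 1 genotype. The remaining 6 libraries, KO neurons given vehicle and WT neurons given inhibitor, entered the fit for the shared estimate of spread and are printed beside some genes. The series title names hippocampus, but the libraries are all labelled as cultured neurons.

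Daam1 encodes a formin, a protein that nucleates and elongates unbranched actin filaments downstream of Wnt signalling. Microexons are very short exons that neurons include by regulated splicing. ROCK, a kinase activated by the small GTPase RhoA, raises myosin contractility and stabilises actin filaments, and Y-27632 blocks its activity. When actin monomers are used up, the cofactor MRTF enters the nucleus and, with the serum response factor SRF, switches on genes of the cytoskeleton through CArG boxes in their promoters.

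One annotated exon of Daam1 is short enough to be called a microexon. It is 27 nt long, is exon 16 of 26 in 2 of the 3 coding transcripts (GENCODE M21, GRCm38), and lies inside the coding part of the gene on the plus strand, at chr12:71958747-71958773. It is shown because the knockout is named for a microexon of this gene. Whether it is the exon deleted here is not stated in the labels. The exon is in capitals, between the neighbouring bases of the spliced transcript.
Daam1 microexon: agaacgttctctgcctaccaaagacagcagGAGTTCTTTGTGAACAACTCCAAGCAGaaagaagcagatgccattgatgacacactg
Whole-gene counts hardly register an exon of this length, so the level of Daam1 does not check the genotype labels. Daam1 stood at 166, 154 and 183 CPM in the WT libraries 1 to 3 and at 167, 188 and 67.9 CPM in the treated KO libraries 1 to 3 (CPM, counts scaled to the normalised library size). Treated KO libraries 1 and 2 lay in or just above the WT range, and library 3 lay far below it. The log2 fold change was -0.25 ± 0.30 (± SE) with library 3 and 0.09 ± 0.13 without it.

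Library 3 of the treated KO group stood apart from the rest, and fold changes against WT are therefore given with and without it. Its median correlation with the other libraries (Pearson's r over log2 CPM, across genes) was 0.854, where the other 11 lay between 0.953 and 0.986. Totals ran from 23253566 to 35012561 counts. In library 3, 19 presynaptic genes summed to 2557 CPM, against 9849 and 10720 CPM in treated KO libraries 1 and 2, while 9 neural progenitor markers summed to 871.8 CPM against 130.1 and 68.12 CPM. WT library 2 stood off in part the same way. It held the highest WT sums of YAP target genes (2096 CPM, against 459.8 and 375.6 CPM) and of mesenchymal markers (2232 CPM, against 615.3 and 215.7 CPM). The part of these marker levels in the results below was not tested. In bulk RNA fewer cells of a type and less RNA per cell cannot be told apart.

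The label of the neurons was checked against marker genes. Slc17a6, a vesicular glutamate transporter, was abundant, at 280, 250 and 376 CPM in WT and 325, 424 and 51.7 CPM in treated KO. The cortical glutamatergic markers Slc17a7, Tbr1, Neurod1, Neurod2, Neurod6, Emx1 and Fezf2 were each at or below 2.07 CPM in all 6 libraries. GABAergic markers were present as well: the 13 listed genes summed to 754.2 to 807.6 CPM in WT. The 11 glutamatergic markers summed to 287.9 to 412.9 CPM, most of it Slc17a6. The lists hold different genes, so these sums do not rank the cell types. Hox genes, which mark hindbrain and spinal cord, summed to 798.5 to 1072 CPM in WT.

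Over all genes, no gene passed the test with or without library 3. With all 12 libraries, 0 of 15443 genes (0.0%) reached an edgeR adjusted p below 0.05, with 0.847, held by 8752 genes, as the lowest adjusted p. At an unadjusted p below 0.05, 148 genes (0.958%) were higher and 241 (1.56%) lower in treated KO. In 282 genes (1.83%) every treated KO library lay above every WT library, and in 453 (2.93%) every one lay below. Without library 3, again 0 of 15591 genes (0.0%) passed, and the smallest adjusted p was 0.0543. At an unadjusted p below 0.05, 407 genes (2.61%) were higher and 390 (2.5%) lower, and 1676 (10.7%) and 1296 (8.31%) genes did not overlap, higher and lower. DESeq2, a second count test, called 17 of 17517 genes (0.097%) with library 3, 3 higher and 14 lower, and 26 of 16530 (0.157%) without it, 10 higher and 16 lower. Another tool, limma with sample weights, called 1 gene in each fit, Col25a1. For every gene given below as called by DESeq2, at least 1 other setting put the adjusted p at 0.828 or above.

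A count of 0 does not show that the groups were alike, so the precision was counted too. In 8279 genes (53.6%) the whole 95% interval of the fold change lay inside a factor of 2 in either direction. Without library 3 this held for 10928 genes (70.1%). For the remaining genes a 2-fold difference lay within the interval. The biological coefficient of variation, the spread between libraries beyond counting noise, was 0.411 with library 3 and 0.28 without it. The labels number the lines and say no more about how separate the cultures were, and p-values measure the spread between these libraries only.

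The transcription factors En1, En2 and Hoxc8, which pattern the neural tube, stood lower in all 3 treated KO libraries. En1, an engrailed homeobox gene of the midbrain, hindbrain and spinal interneurons (ENSMUSG00000058665, chr1:120602418-120607992), was at 8.77, 8.14 and 7.74 CPM in WT and 4.56, 4.48 and 2.19 CPM in treated KO. The groups did not overlap, and the log2 fold change was -1.13 ± 0.27 with library 3 and -0.86 ± 0.16 without it. Its relative En2 was at 2.51, 2.3 and 2.64 CPM in WT against 1.5, 0.896 and 1.18 CPM, a log2 fold change of -1.06 ± 0.25 with library 3 and -1.05 ± 0.27 without it. Hoxc8, a Hox gene of the thoracic level (ENSMUSG00000001657), was at 1.17, 1.48 and 2.22 CPM in WT and 0.313, 0.145 and 0.0636 CPM in treated KO. Hoxc8 was thus at a low level in WT and lower still in each treated KO library, with a log2 fold change of -3.19 ± 0.57 with library 3 and -2.81 ± 0.55 without it. Hoxc5 is annotated over part of it in the same orientation, and reads shared between them are uncertain. DESeq2 called En1 and Hoxc8 in both fits (with library 3, DESeq2 adjusted p of 0.0349 and 0.000561; over all alternatives the adjusted p of En1 ranged from 0.0349 to 1.00 and that of Hoxc8 from 0.000561 to 0.979) and En2 only with library 3 (DESeq2 adjusted p of 0.0498, and 0.205 without it).

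Lrmp, which encodes an endoplasmic reticulum membrane protein known from lymphocytes (ENSMUSG00000030263, chr6:145115653-145174934), was close to 0 counts in treated KO neurons. It had 591, 145 and 498 counts in the WT libraries and 0, 1 and 4 counts in the treated KO libraries. Counts were pooled over libraries and scaled to the normalised library sizes of the fit with all 12 libraries. On that scale Lrmp was 283-fold lower (95% counting interval 121 to 874) with library 3 and 962-fold lower (172 to 38000) without it. These intervals cover counting error alone. DESeq2 called it in both fits, with an adjusted p of 5e-06 with library 3 and 0.00386 without it, while the edgeR adjusted p was 0.847 and 0.902. Lrmp overlaps Casc1 on the opposite strand. KO libraries given vehicle held 0, 0 and 0.0784 CPM, and 1 WT library given inhibitor was low as well: 19.6, 15.9 and 0.595 CPM.

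Rec8, a meiotic cohesin subunit (ENSMUSG00000002324, chr14:55618037-55625395), was at 29.6, 19.1 and 23.2 CPM in WT and 13.4, 12.8 and 8.37 CPM in treated KO. All 3 treated KO libraries lay below the lowest WT library, and the log2 fold change was -1.05 ± 0.23 with library 3 and -0.87 ± 0.20 without it. DESeq2 called Rec8 in both fits, with an adjusted p of 0.0323 and 0.0304. Nkx3-2, a homeobox gene of the axial skeleton, was even within each group, at 0.619, 0.584 and 0.653 CPM in WT and 0.219, 0.26 and 0.223 CPM in treated KO. Its log2 fold change was -1.39 ± 0.25 with library 3 and -1.35 ± 0.32 without it, and no tool called it. Over the list it belongs to, 17 skeletal and limb patterning regulators, 5 of 10 tested were lower with library 3 (median log2 fold change -0.215) and 11 of 11 without it (median -1.13). Without WT library 2 these medians were 1.20 and -0.22.

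**Figure D1:**
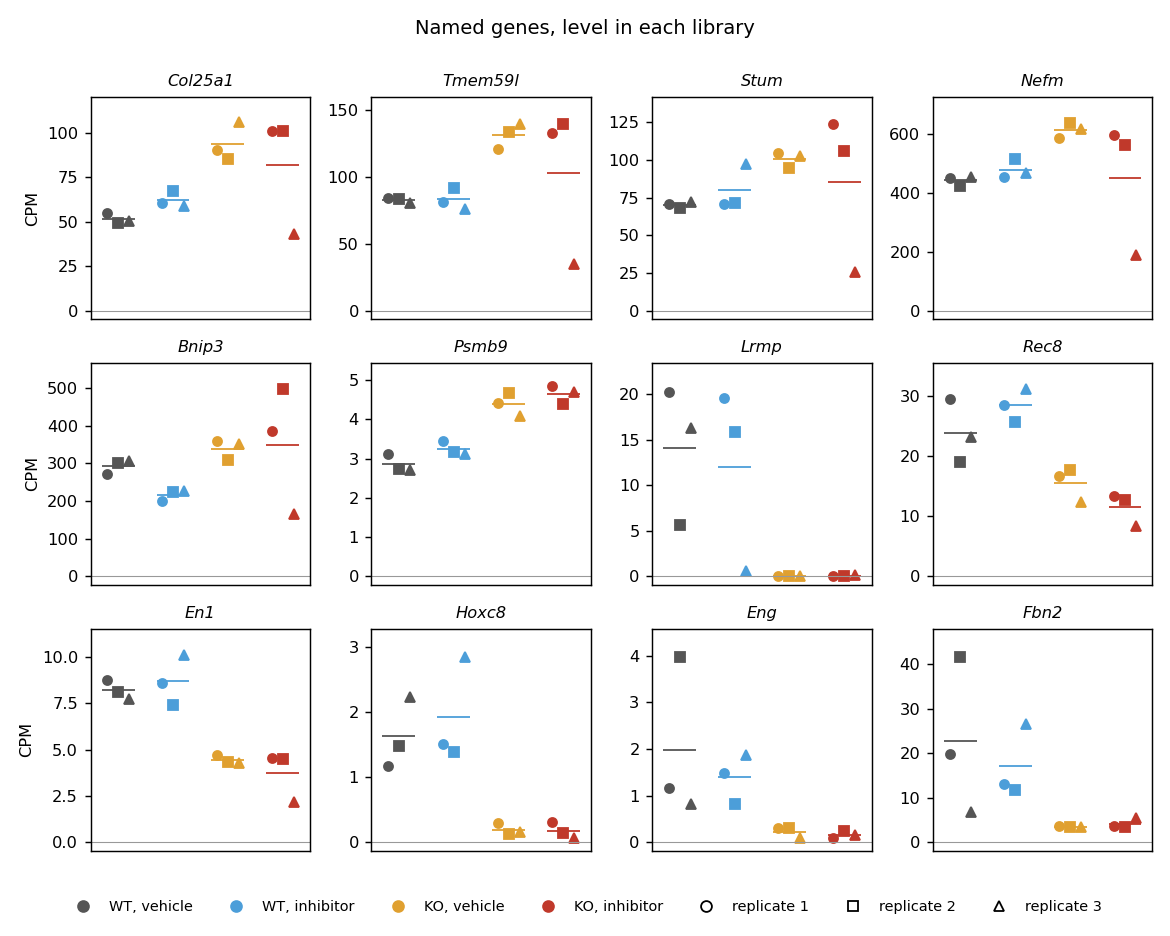
CPM of 12 named genes (vertical axes, each on its own linear scale) in the 12 libraries, in 4 colours by genotype and treatment, with lines at group means. Col25a1, Tmem59l, Stum, Nefm and Bnip3 are high in treated KO libraries 1 and 2 and low in library 3, while Rec8, En1 and Hoxc8 are low in all 3.

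Psmb9, an inducible subunit of the immunoproteasome (ENSMUSG00000096727), was 1 of 3 genes that DESeq2 called higher with library 3. It was at 3.13, 2.73 and 2.71 CPM in WT and 4.84, 4.4 and 4.71 CPM in treated KO, with no overlap. The log2 fold change was 0.70 ± 0.17 with library 3 and 0.69 ± 0.17 without it. DESeq2 called it with library 3 (adjusted p of 0.0223; 0.0223 to 1.00 over the alternatives) and not without it (0.153). Psmb9 overlaps Tap1 on the opposite strand. Kitl, the ligand of the receptor Kit, was at 52.5, 55.3 and 59.7 CPM in WT and 67.1, 72.1 and 108 CPM in treated KO, a log2 fold change of 0.56 ± 0.17 with library 3 and 0.32 ± 0.10 without it. Serpina3n, a secreted protease inhibitor of reactive astrocytes, was at 13.9, 15.8 and 11.5 CPM in WT and 19.2, 19.8 and 71.3 CPM in treated KO. Its log2 fold change of 1.42 ± 0.44 came down to 0.51 ± 0.13 without library 3, and Pla2g7, a phospholipase, went from 2.58 ± 0.78 to 0.76 ± 0.30 in the same way. Kcnip3, a calcium sensor that binds potassium channels, was at 1.45, 1.32 and 1.4 CPM in WT and 1.88, 3.47 and 3.79 CPM in treated KO, a log2 fold change of 1.13 ± 0.28 with library 3 and 0.94 ± 0.28 without it. No tool called Kitl, Serpina3n, Pla2g7 or Kcnip3, and DESeq2 gave Pla2g7 no adjusted p with library 3.

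Without library 3, Col25a1, Tmem59l, Stum and Nefm stood higher at high expression levels. Col25a1, a transmembrane collagen of neurons (ENSMUSG00000058897, chr3:130131501-130599877), was at 54.9, 49.3 and 50.6 CPM in WT and at 101 and 101 CPM in treated KO libraries 1 and 2, against 43.2 CPM in library 3. Libraries 1 and 2 lay at about the same level far above WT, and library 3 lay below WT. The log2 fold change was 0.97 ± 0.10 without library 3 (edgeR adjusted p of 0.0543, DESeq2 adjusted p of 3.05e-10, and 0.969 at most over the alternatives) and 0.66 ± 0.27 with it. Tmem59l, a neuronal membrane protein, was at 84, 83.2 and 80.6 CPM in WT and 133, 140 and 35 CPM in treated KO, a log2 fold change of 0.72 ± 0.09 without library 3 (edgeR adjusted p of 0.13, DESeq2 adjusted p of 4.42e-06) and 0.31 ± 0.39 with it. Stum was at 70.6, 68 and 72.5 CPM in WT and 124, 106 and 25.6 CPM in treated KO. Nefm, the medium neurofilament subunit of axons, was at 452, 422 and 453 CPM in WT and 597, 563 and 190 CPM in treated KO. In these 4 genes libraries 1 and 2 stood above WT and library 3 below it, and the error was wider with library 3. For Stum the log2 fold change was 0.71 ± 0.14 without library 3 and 0.27 ± 0.43 with it, and for Nefm 0.39 ± 0.08 and 0.03 ± 0.34. DESeq2 called all 4 without library 3 and none of them with it. Nefm overlaps Nefl, its neighbour, on the opposite strand.

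Bnip3, Higd1a and Gbe1 had the same order of libraries. Bnip3, a mitophagy receptor induced by hypoxia (ENSMUSG00000078566), was at 272, 302 and 306 CPM in WT and 385, 499 and 165 CPM in treated KO. Higd1a, a mitochondrial protein also induced by hypoxia, was at 145, 133 and 146 CPM in WT and 179, 222 and 69 CPM in treated KO. Gbe1, the glycogen branching enzyme, was at 14.1, 15.5 and 13.8 CPM in WT and 19.6, 20.9 and 13.4 CPM in treated KO. Without library 3 their log2 fold changes were 0.59 ± 0.12, 0.51 ± 0.10 and 0.49 ± 0.10, and DESeq2 called all 3 (adjusted p of 0.018, 0.0468 and 0.0139). With library 3 the values were 0.25 ± 0.31, 0.15 ± 0.32 and 0.31 ± 0.16, and neither tool called them. Hapln4, a link protein of the matrix around neurons, was at 54.6, 69.4 and 60.9 CPM in WT and 87.9, 88.7 and 20.3 CPM in treated KO, a log2 fold change of 0.52 ± 0.11 without library 3 and 0.09 ± 0.42 with it. Strip2, a part of a phosphatase complex, was at 23.7, 22.3 and 23.6 CPM in WT and 32.5, 37.8 and 5.88 CPM in treated KO (0.60 ± 0.11 and 0.13 ± 0.49). Each of these 5 genes lay above WT in libraries 1 and 2 and below it in library 3.

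Without library 3, the well-expressed Prpsap1 and Gcn1l1 stood slightly lower, and Atp10a, at a low level, stood lower in both fits. Prpsap1, a regulator of nucleotide synthesis, was at 50.4, 49.1 and 48.6 CPM in WT and 41.3, 39 and 50.8 CPM in treated KO, a log2 fold change of -0.30 ± 0.07 without library 3 and -0.18 ± 0.10 with it. Gcn1l1, which senses stalled ribosomes, was at 184, 178 and 181 CPM in WT and 150, 146 and 216 CPM in treated KO, a log2 fold change of -0.29 ± 0.07 without library 3 and -0.09 ± 0.15 with it. DESeq2 called both without library 3 (adjusted p of 0.00743 for Prpsap1), and in both genes library 3 lay above WT. Atp10a, a lipid flippase, was at 3.65, 2.69 and 3.85 CPM in WT and 1.66, 1.56 and 2.61 CPM in treated KO, below WT in all 3 libraries (log2 fold change -0.81 ± 0.27 with library 3 and -1.07 ± 0.25 without it), and no tool called it.

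**Figure D2:**
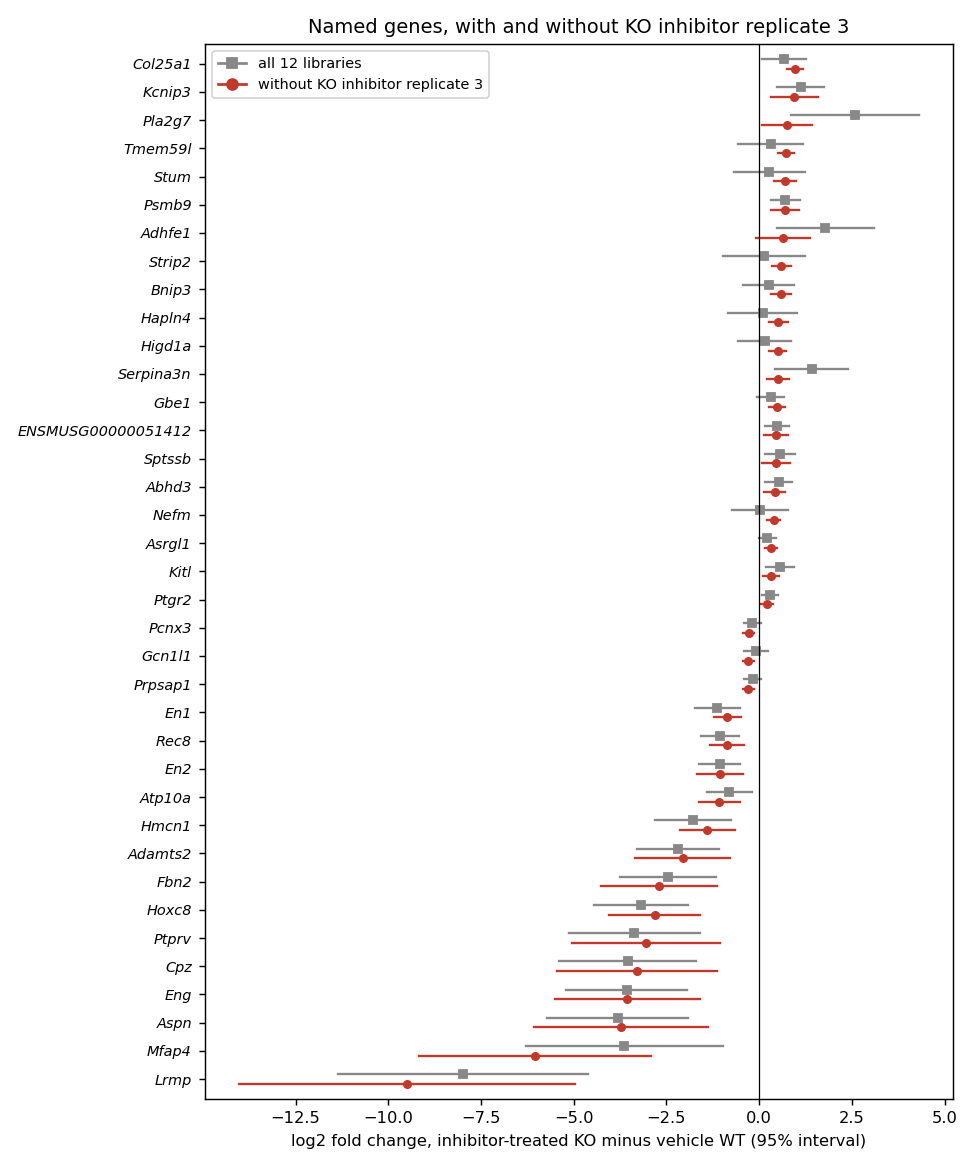
Log2 fold change of treated KO against untreated WT (horizontal axis) with its 95% interval for each named gene, with all 12 libraries (grey squares) and without treated KO library 3 (red circles). Rec8, En1, En2 and Hoxc8 lie below 0 in both fits, while the intervals of Tmem59l, Stum, Nefm and Bnip3 cross 0 with library 3; Lrmp has so few treated KO counts that its fitted value depends on the fit's settings.

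Most markers of mesenchymal cells, the connective tissue cells that secrete collagens, stood lower in treated KO. Their summed level overlapped between the groups, at 615.3, 2232 and 215.7 CPM in WT and 244.2, 164.6 and 1159 CPM in treated KO. Of 11 mesenchymal cell markers, 11 were tested. With library 3, 10 were lower and 1 higher, and without it 11 were lower. The list's median log2 fold change was -2.74 with library 3 and -2.46 without it, beside 0.00142 and -0.0309 over all genes tested. In each fit 8 of the 11 were lower at an unadjusted p below 0.05, beside 1.56% of all genes with library 3 and 2.5% without it, and 0 passed adjustment in edgeR. Without WT library 2, the library with the most mesenchymal RNA, the median was -1.46 with library 3 and -1.42 without it.

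Col1a1 and Col3a1, fibrillar collagens, were low in each treated KO library. Col1a1, a main chain of collagen I, was at 145, 466 and 37.3 CPM in WT and 19.5, 31.1 and 20.3 CPM in treated KO. Col3a1, the chain of collagen III, was at 128, 351 and 37.8 CPM in WT and 15.7, 24.3 and 22 CPM in treated KO. In both genes every treated KO library lay below the lowest WT library, library 3 included, while the WT libraries themselves spread over about a factor of 10. The log2 fold changes were -3.19 ± 0.88 for Col1a1 and -3.06 ± 0.81 for Col3a1 with library 3, and -3.09 ± 1.08 and -3.10 ± 1.01 without it, and DESeq2 called Col3a1 with library 3 (adjusted p of 0.0498) and not without it (0.223). Col1a2 overlapped between groups: 67.8, 221 and 16.9 CPM in WT against 13, 14.1 and 18.8 CPM.

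Among matrix proteoglycans and secreted proteins, Dcn, decorin, was at 18.5, 44.2 and 5.26 CPM in WT and 2.72, 4.16 and 2.74 CPM in treated KO. Lum, lumican, was at 7.4, 18.7 and 1.6 CPM in WT and 1.66, 0.896 and 0.986 CPM in treated KO. Postn, periostin, was at 29.2, 90.9 and 15.7 CPM in WT and 7.22, 9.22 and 1.97 CPM in treated KO. Dcn and Postn did not overlap, and Lum overlapped through WT library 3. Aspn, asporin, was at 1.75, 5.53 and 0.686 CPM in WT and 0.219, 0.173 and 0.159 CPM in treated KO, and Fbn2, a fibrillin of elastic fibres, was at 19.8, 41.7 and 6.79 CPM in WT and 3.56, 3.44 and 5.38 CPM in treated KO. DESeq2 called Aspn and Fbn2 in both fits (adjusted p of 0.015 and 0.0269 with library 3). Fap, a protease of activated fibroblasts, had 154 counts in WT and 9 in treated KO, 19.7-fold lower (95% counting interval 10.1 to 43.8), and 17.2-fold lower (8.13 to 43.4) without library 3. Adamts2, which trims procollagens, was at 2.41, 3.89 and 1.11 CPM in WT and 0.594, 0.578 and 0.445 CPM in treated KO, and Hmcn1, a matrix protein, was at 4.89, 7.28 and 4.24 CPM and 1.78, 2.37 and 0.604 CPM. Neither gene overlapped, and DESeq2 called Fap and Adamts2 with library 3 (adjusted p of 0.0223 and 0.0498) and Hmcn1 in neither fit.

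Pdgfra and Fn1 differed from the collagens in library 3. Pdgfra, a growth factor receptor of mesenchymal and oligodendrocyte precursor cells, was at 18.9, 152 and 10.9 CPM in WT and 50.5, 2.28 and 509 CPM in treated KO. Fn1, fibronectin, was at 101, 587 and 45.7 CPM in WT and 90, 29.6 and 540 CPM in treated KO. Library 3 thus held high levels of Pdgfra and Fn1 together with low levels of Col1a1, Dcn, Lum and Postn. Eng, a TGF-beta coreceptor of endothelial and stromal cells, was at 1.17, 3.97 and 0.816 CPM in WT and 0.0938, 0.231 and 0.159 CPM in treated KO, with a DESeq2 adjusted p of 0.0129 with library 3. Vtn, vitronectin, and Ogn, osteoglycin, were low in libraries 1 and 2 only. Vtn was at 4.75, 6.43 and 0.62 CPM in WT and 0.0625, 0.202 and 5.03 CPM in treated KO, and Ogn at 5.16, 12.1 and 0.718 CPM in WT and 0.406, 0.0867 and 2.96 CPM in treated KO. DESeq2 called both without library 3 only. Aspn, Eng, Fbn2 and Ogn each overlap another gene on the opposite strand, and whether the counting used the strand is not given in the sources used here.

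**Figure D3:**
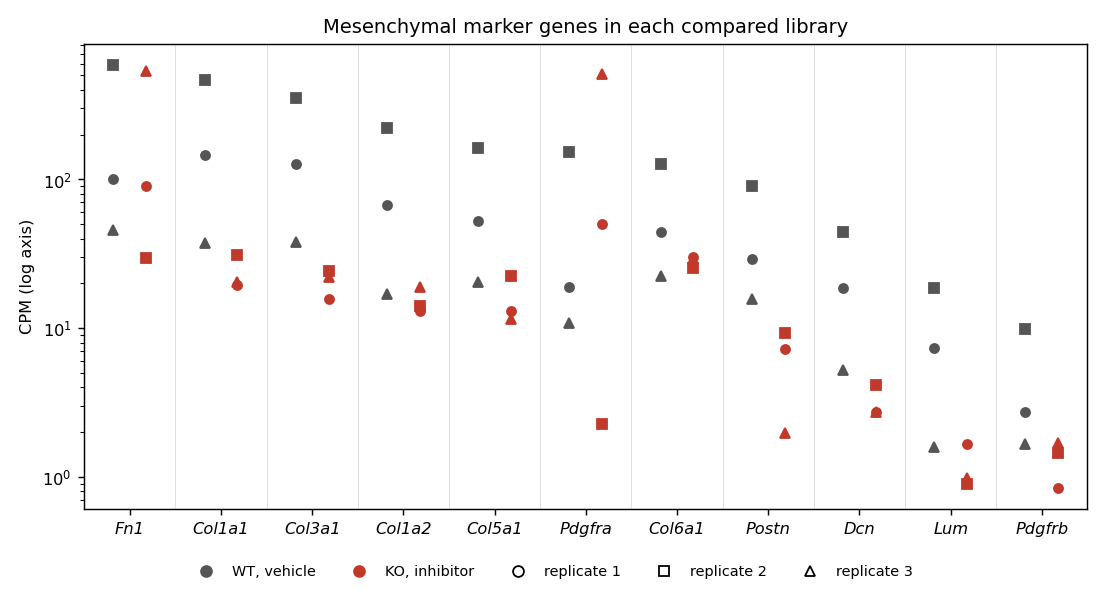
CPM (log axis) of the 11 mesenchymal markers in the 3 untreated WT libraries (grey) and the 3 treated KO libraries (red), ordered by the level in WT library 2. Col1a1, Col3a1, Dcn and Postn lie below every WT library in each treated KO library, while Pdgfra and Fn1 are high in treated KO library 3.

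The genes above were also read in KO neurons given vehicle, which show where KO neurons stood without the inhibitor. These contrasts share libraries with the main one, so their values are set side by side only, in the fit without library 3 unless said otherwise. Treated KO and KO vehicle come from the same 3 lines, and the fit does not use that, so values with the line as a block are given too. Col25a1 was at 90.1, 85.5 and 106 CPM in KO vehicle, a log2 difference from WT vehicle of 0.86 ± 0.09, and treated KO differed from KO vehicle by 0.10 ± 0.10. En1 was at 4.72, 4.33 and 4.27 CPM in KO vehicle, a difference from WT vehicle of -0.89 ± 0.14, and treated KO differed from KO vehicle by 0.03 ± 0.16. Hoxc8 differed by -3.03 ± 0.49 in KO vehicle against WT vehicle and by 0.21 ± 0.58 in treated KO against KO vehicle. For Col3a1 those values were -3.59 ± 0.88 and 0.48 ± 0.90. With the line as a block, treated KO differed from KO vehicle by 0.20 ± 0.11 for Col25a1 and 0.0025 ± 0.22 for En1. The blocked values were 0.12 ± 0.40 for Hoxc8 and 1.05 ± 1.18 for Col3a1. In Col25a1, En1, Hoxc8 and Col3a1 the KO vehicle libraries stood away from WT vehicle on the same side as the treated KO libraries did.

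Bnip3 and Prpsap1 had another order. Bnip3 was at 360, 308 and 351 CPM in KO vehicle, a difference from WT vehicle of 0.21 ± 0.11, while treated KO differed from KO vehicle by 0.38 ± 0.12 (0.40 ± 0.16 with the line as a block, edgeR adjusted p of 1.00 in both, and 0.04 ± 0.31 with library 3). In WT neurons Bnip3 was lower with inhibitor, at 201, 223 and 226 CPM. Prpsap1 was at 49.5, 48.3 and 45.3 CPM in KO vehicle, a difference of -0.05 ± 0.06 from WT vehicle, and treated KO differed from KO vehicle by -0.25 ± 0.07 (-0.28 ± 0.08 with the line as a block, edgeR adjusted p of 1.00 in both, and -0.13 ± 0.10 with library 3). Bnip3 thus stood highest in treated KO libraries 1 and 2, and Prpsap1 lowest there.

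**Figure D4:**
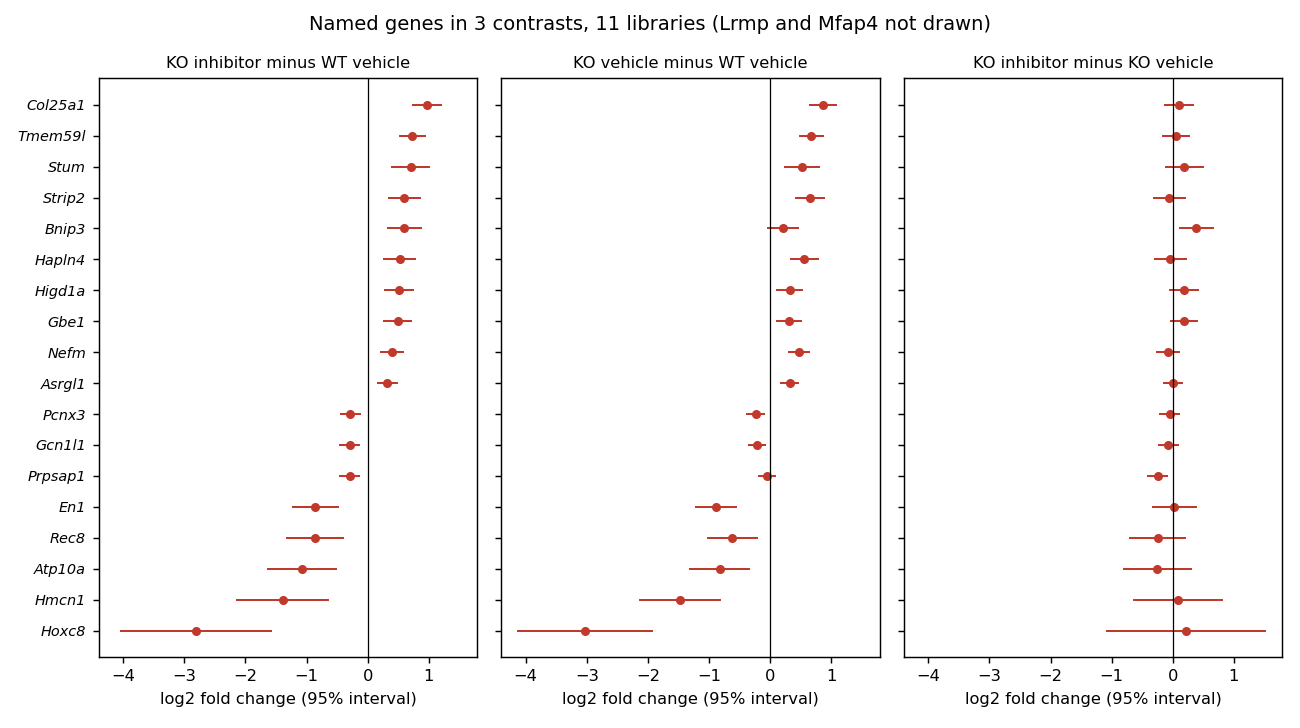
Log2 fold change with 95% interval (horizontal axes) of the genes named in the fit of 11 libraries, in treated KO against WT vehicle, KO vehicle against WT vehicle and treated KO against KO vehicle. Col25a1 is at 0.97, 0.86 and 0.10 in the 3 panels, and Bnip3 at 0.59, 0.21 and 0.38; the panels share libraries.

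Target genes of SRF, the factor that reads out actin assembly, had 2 high libraries, 1 in each group. Of 25 listed genes, 23 were tested with library 3 and 24 without it. With library 3, 13 were higher and 10 lower (median log2 fold change 0.0791). At an unadjusted p below 0.05 there were 0, where 0.958% of all genes were higher and 1.56% lower. Without it, 0 were higher and 24 lower (median -1.05), 4 at an unadjusted p below 0.05 (2.5% of all genes), and 3 lay below WT without overlap, a share near the 8.31% of all genes. Without WT library 2 the median was 0.97 with library 3 and 0.000269 without it. Summed over the list, WT libraries held 3155, 5241 and 3049 CPM and treated KO libraries 3404, 2878 and 6467 CPM, so WT library 2 and treated KO library 3 were the high ones and the other 4 lay close together.

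Single SRF targets mostly had the same 2 libraries high. Actg1, cytoplasmic gamma actin and the most abundant member, was at 1740, 2550 and 1800 CPM in WT and 1980, 1810 and 2270 CPM in treated KO, a log2 fold change of -0.01 ± 0.19 with library 3 and -0.10 ± 0.15 without it. Myh9, a nonmuscle myosin heavy chain, was at 50.1, 280 and 29.3 CPM in WT and 89.5, 25.9 and 623 CPM in treated KO. Filip1l, a filamin-associated protein, was at 2.79, 13.4 and 1.08 CPM in WT and 4.22, 0.694 and 54.9 CPM in treated KO. Flna, filamin A, which crosslinks actin, was 1 of the 4 lower at an unadjusted p below 0.05 without library 3: at 214, 303 and 182 CPM in WT and 137, 89.5 and 510 CPM in treated KO, it lay below every WT library in libraries 1 and 2, with a log2 fold change of -1.04 ± 0.36 (unadjusted p of 0.0174), and of 0.07 ± 0.57 with library 3. Srf itself was at 27.2, 41.9 and 23.8 CPM in WT and 27.8, 24.5 and 31.2 CPM in treated KO.

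The promoters of 3 of these genes are shown because they hold the CArG box that SRF binds. CArG boxes were searched by name on both strands in the 250 bases before the annotated start (RefSeq, GRCm38.p6). They were found in 9 of the 21 listed genes with a promoter sequence (42.9%) and in 439 of 27025 genes in all (1.62%). The sequence TATAAA, on either strand, was found in 5 of the 21 (23.8%) and in 14.3% of all genes. The CArG box reads the same on both strands, and no TATAAA shares bases with a box in the sequences printed. A match describes the sequence and not binding. The 150 bases before the start are printed with CArG boxes, and in Srf also a reverse-strand TATAAA, in capitals. They are from the minus strand at chr11:120348496-120348645 (Actg1), the minus strand at chr17:46556163-46556312 (Srf) and the plus strand at chr16:57549092-57549241 (Filip1l).
Actg1: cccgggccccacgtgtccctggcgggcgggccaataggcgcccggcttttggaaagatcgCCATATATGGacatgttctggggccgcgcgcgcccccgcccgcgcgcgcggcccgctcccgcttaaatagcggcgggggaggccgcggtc
Srf: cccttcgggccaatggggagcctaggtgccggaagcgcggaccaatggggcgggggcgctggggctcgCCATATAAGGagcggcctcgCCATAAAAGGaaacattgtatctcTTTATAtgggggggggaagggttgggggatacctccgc
Filip1l: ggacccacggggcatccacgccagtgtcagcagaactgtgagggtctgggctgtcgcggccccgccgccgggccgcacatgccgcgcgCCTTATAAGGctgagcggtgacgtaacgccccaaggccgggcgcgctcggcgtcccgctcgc
The first base of the box lies at -90 in Actg1 and at -62 in Filip1l, counted from the start, and Srf holds 2 boxes. Filip1l has a second annotated start, whose 150 bases hold no box. Of these 3 genes, Actg1 and Srf had groups that overlapped within a factor of 2, and Filip1l ran from 0.694 to 54.9 CPM.

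Target genes of YAP and TEAD, a second readout of cell tension, had the same 2 libraries high. With library 3, 11 of 16 were higher (median log2 fold change 0.341), and without it 1 was higher and 15 lower (median -0.856). In either fit 0 had an unadjusted p below 0.05. Of all genes, 0.958% were higher and 1.56% lower at that p with library 3, and 2.61% and 2.5% without it. Without WT library 2 the median was 1.14 with library 3 and 0.158 without it. Ccn2, a matricellular protein and a standard YAP target, was at 63, 565 and 36.9 CPM in WT and 138, 20.9 and 2000 CPM in treated KO. Ccn1, its relative, was at 26.2, 296 and 11.8 CPM in WT and 23.9, 4.89 and 153 CPM in treated KO. Both genes spread over more than a factor of 10 within each group.

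Transcripts of the pathway that the inhibitor acts on differed in how far they spread between libraries. Of 25 RhoA, ROCK and myosin pathway genes, 25 were tested, and the median log2 fold change was -0.114 with library 3 and -0.0686 without it. The interval lay inside a factor of 2 for 13 of the 25 with library 3 and 17 without it, near the shares over all genes of 53.6% and 70.1%. Rock2, the main ROCK gene of neurons, was at 89.1, 101 and 97.4 CPM in WT and 94.3, 88.2 and 114 CPM in treated KO. Its log2 fold change was 0.04 ± 0.12 with library 3 and -0.07 ± 0.09 without it. Rock1 was at 17.8, 27.9 and 18.2 CPM in WT and 18.1, 13.8 and 63.5 CPM in treated KO. Mylk, the kinase that phosphorylates myosin light chain, was at 3.17, 4.6 and 1.31 CPM in WT and 1.56, 1.04 and 1.21 CPM in treated KO, a log2 fold change of -1.25 ± 0.43 with library 3 (unadjusted p of 0.015) and -1.21 ± 0.49 without it. Ppp1cb, a catalytic subunit of myosin phosphatase, was at 308, 315 and 330 CPM in WT and 355, 388 and 301 CPM in treated KO, a log2 fold change of 0.23 ± 0.08 without library 3 and 0.13 ± 0.13 with it. Other members spread widely: Ezr, which links actin to the membrane, was at 17.3, 83.8 and 9.43 CPM in WT and 30.3, 8.47 and 285 CPM in treated KO. Rhoc, a GTPase related to RhoA, was at 8.57, 42.5 and 4.54 CPM in WT and 16, 2 and 145 CPM in treated KO, and Myl12a, a myosin light chain, at 8.46, 40.4 and 3.23 CPM and 13.2, 3.18 and 122 CPM. In these 3 genes WT library 2 and treated KO library 3 were the high ones.

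The formins and the branched-actin machinery held no gene at an unadjusted p below 0.05 in either fit, where with library 3 0.958% of all genes were higher and 1.56% lower, and without it 2.61% and 2.5%. The 15 formin genes had a median log2 fold change of 0.0526 with library 3 and -0.084 without it, with intervals inside a factor of 2 for 7 and 9 of them, smaller shares than the 53.6% and 70.1% of all genes. Their sum lay between 481.3 and 498.6 CPM in WT and between 484.9 and 504.8 CPM in treated KO. Fmn2, a formin of neurons, was at 70.8, 54.8 and 80.8 CPM in WT and 72.5, 78.8 and 25.9 CPM in treated KO. The 25 genes of the Rac, WAVE and Arp2/3 list, which build branched actin, had a median of 0.103 with library 3 and 0.06 without it, with intervals inside a factor of 2 for 14 and 21 of them, beside the same shares.

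**Figure D5:**
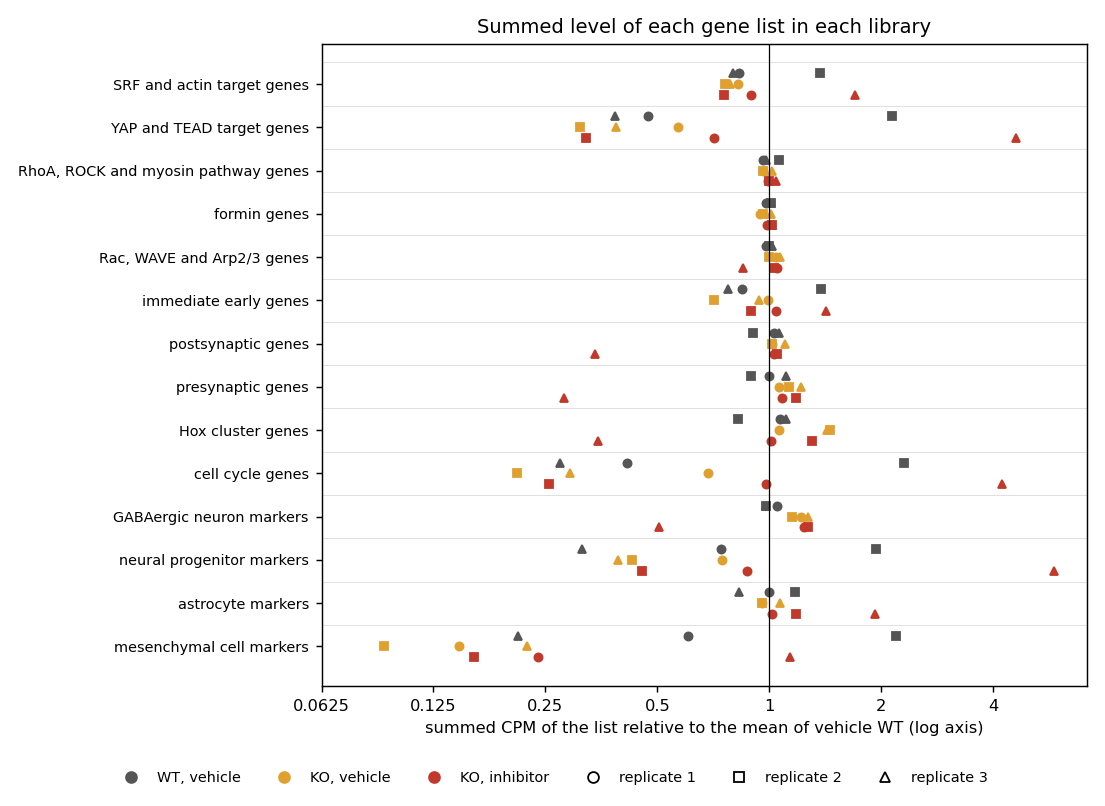
Summed CPM of each gene list in each library relative to the mean of the untreated WT libraries (log axis), for untreated WT (grey), KO given vehicle (orange) and treated KO (red). Treated KO library 3 (red triangles) is low in synaptic lists and high in YAP, cell cycle and progenitor lists. WT library 2 (grey squares) is also high in YAP, cell cycle and progenitor lists. Mesenchymal markers are at 0.239, 0.161 and 1.14 in treated KO libraries 1 to 3 and at 0.603, 2.19 and 0.211 in WT libraries 1 to 3.

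Synaptic genes changed sides with library 3. Of 19 presynaptic genes tested, 0 were higher with library 3 (median log2 fold change -0.222) and 16 were higher without it (median 0.188). The interval lay inside a factor of 2 for 2 of the 19 with library 3 and for 19 without it. Without library 3, 5 of the 19 lay above WT with no overlap, beside 10.7% of all genes. At an unadjusted p below 0.05, 1 of the 19 was higher, beside 2.61% of all genes. That gene was Syn2, a synaptic vesicle phosphoprotein, at 133, 122 and 132 CPM in WT and 158, 168 and 42.8 CPM in treated KO, with a log2 fold change of 0.34 ± 0.11, and of -0.07 ± 0.39 with library 3. Snap25, a SNARE protein of vesicle fusion, was at 1080, 676 and 1180 CPM in WT and 1120, 1280 and 310 CPM in treated KO. Of 22 postsynaptic genes, 1 was higher with library 3 (median -0.277) and 14 without it (median 0.0313). Grin1, the obligate NMDA receptor subunit, was at 423, 471 and 445 CPM in WT and 547, 556 and 116 CPM in treated KO, a log2 fold change of 0.31 ± 0.11 without library 3 and -0.14 ± 0.44 with it. Dlg4, which encodes the scaffold PSD-95, was at 483, 444 and 429 CPM in WT and 451, 445 and 164 CPM in treated KO. Of 9 neuronal splicing regulators, among them the factors that set microexon inclusion, 8 were lower with library 3 (median -0.293) and 2 without it (median 0.0296). Srrm4, the main activator of microexons, was at 33.7, 25 and 35.7 CPM in WT and 29.9, 33.6 and 7.44 CPM in treated KO.

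Some genes of inhibitory transmission stood higher in treated KO libraries 1 and 2. Of 12 GABAergic markers tested without library 3, 5 were higher and 2 lower at an unadjusted p below 0.05, each without overlap, and 0 passed adjustment. Over all genes, 2.61% were higher and 2.5% lower at that p, and 10.7% and 8.31% did not overlap. Gad2 and Pvalb were among the 5 higher, and Dlx1 was among the 2 lower (list median log2 fold change 0.114, and 0.0087 with library 3). Slc32a1, the vesicular GABA transporter, was at 138, 148 and 122 CPM in WT and 192, 189 and 52.2 CPM in treated KO. Gad1, which makes GABA, was at 182, 159 and 175 CPM in WT and 240, 207 and 86.7 CPM in treated KO. The log2 fold changes without library 3 were 0.49 ± 0.13 for Slc32a1 and 0.38 ± 0.13 for Gad1, and with it 0.09 ± 0.38 and 0.05 ± 0.30. Vip, a neuropeptide of some interneurons, went the other way in all 3 libraries, from 1.86, 1.48 and 4.21 CPM in WT to 0.781, 0.81 and 0.127 CPM in treated KO (log2 fold change -2.13 ± 0.61 with library 3 and -1.66 ± 0.44 without it). The 10 glutamatergic markers tested had a median of -0.112 with library 3 and 0.0368 without it.

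Immediate early genes, which respond to activity and to serum within minutes to hours, were measured after the 2 h exposure. Of 22 tested, 13 were higher with library 3 (median log2 fold change 0.0956) and 9 without it (median -0.0593). Fos was at 19.5, 32.2 and 21.1 CPM in WT and 33.3, 21.5 and 11.6 CPM in treated KO, and Egr1 at 40.1, 60 and 28.8 CPM and 58.6, 52.3 and 43.5 CPM. Without library 3, 1 of the 22 had an unadjusted p below 0.05, where 2.61% of all genes were higher and 2.5% lower. That gene was Dusp6, a phosphatase induced by ERK signalling, at 18.5, 25.2 and 18.1 CPM in WT and 27.3, 26.8 and 20.3 CPM in treated KO. Its log2 fold change was 0.39 ± 0.16, and 0.27 ± 0.17 with library 3. The groups overlapped for Fos and Egr1.

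Patterning genes split by member. Of 29 Hox genes tested, 9 were higher and 20 lower with library 3, and 15 higher and 14 lower without it (medians -0.255 and 0.0307). Hoxb5 was at 76.4, 63 and 83.6 CPM in WT and 99, 252 and 29.4 CPM in treated KO, so library 2 was the high one. Hoxb8 was at 294, 218 and 297 CPM in WT and 238, 167 and 102 CPM in treated KO, a log2 fold change of -0.67 ± 0.26 with library 3 and -0.41 ± 0.17 without it. Hoxd8 was at 22.1, 17.8 and 24.3 CPM in WT and 16.8, 12.7 and 5.53 CPM in treated KO, below WT in all 3 libraries. The 13 Hedgehog pathway genes tested had a median of -0.0391 with library 3 and -0.361 without it, and of 0.22 and 0.0019 without WT library 2. Among them, Gli2, a transcription factor of the pathway, was at 2.62, 2.53 and 1.44 CPM in WT and 1.22, 0.896 and 0.891 CPM in treated KO, without overlap (log2 fold change -1.13 ± 0.30 with library 3 and -1.05 ± 0.33 without it). Cdon, a coreceptor for Hedgehog ligands, was lower in libraries 1 and 2 only, at 11.5, 13.9 and 12 CPM in WT and 9.31, 7.66 and 19.4 CPM in treated KO. Shh, a ligand of the pathway, went the other way, at 4.2, 3.19 and 5.22 CPM in WT and 5.97, 10.5 and 1.88 CPM in treated KO, a log2 fold change of 0.97 ± 0.35 without library 3 (unadjusted p of 0.0195) and 0.54 ± 0.52 with it.

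Summed over their lists, cell cycle and progenitor genes were high in library 3 and in WT library 2. Of 21 cell cycle genes, 21 were higher with library 3 (median log2 fold change 0.912), and 1 was higher and 20 lower without it (median -0.742). Without WT library 2 the median was 2.69 with library 3 and 0.863 without it. Top2a, a topoisomerase of dividing cells, was at 12.5, 128 and 4.99 CPM in WT and 42.1, 1.82 and 198 CPM in treated KO. The 9 progenitor markers went from a median of 1.40 with library 3 to -0.478 without it (2.17 and 0.29 without WT library 2). Sox2, a progenitor transcription factor, was at 2.27, 2.1 and 0.783 CPM in WT and 1.59, 1.85 and 20.4 CPM in treated KO. Vim held 220 of the 290.7 CPM of the progenitor sum in WT library 2. Among the WT libraries, Vim, Nes, Hes1, Notch1 and Sox1 were highest in library 2. Sox2, Pax6, Hes5 and Fabp7 were highest in WT library 1. Of 8 astrocyte markers, 7 were higher with library 3 (median 0.975) and 4 without it (median -0.0868). Gfap, the astrocyte intermediate filament, was at 185, 177 and 40.5 CPM in WT and 76.3, 54.8 and 598 CPM in treated KO. Mitochondrially encoded respiratory genes, which are cut from shared long transcripts and so are not independent, summed to 149100, 154600 and 139200 CPM in WT and 127500, 139300 and 90450 CPM in treated KO. Of the 13, 13 were lower in both fits, 9 without overlap in each (beside 2.93% and 8.31% of all genes). Their median was -0.307 with library 3 and -0.142 without it. At an unadjusted p below 0.05, 0 were lower in either fit, beside 1.56% of all genes with library 3 and 2.5% without it.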

How the data were processed

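The authors deposited, for each library, a table of 36902 genes with a cRPKM value (RPKM, reads scaled by the length of the gene and the depth, here corrected) and a whole-number read count; the deposited counts were tested and the deposited RPKM values were not. The build is mm10, per the submitters' processing notes; aligner, annotation and use of strand are not given in the sources used here. Genes listed as NA (3342) were left out, among them Rims1, Nrxn2 and Kif11; 33371 of the remaining 33560 identifiers matched a symbol. Groups come from the labels.

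Counts were tested with edgeR 4.0.16 in R 4.3.3 (filterByExpr, TMM, robust quasi-likelihood F test, 1 coefficient per group), once with all 12 libraries and once without treated KO library 3, with Benjamini-Hochberg adjustment and a threshold of 0.05. DESeq2 1.42.0 and limma 3.58.1 (voom with sample weights, chosen after seeing the data) were alternatives. The procedure was also run on simulated data, in which all genes had the same spread and no library stood apart. These data differ in both, so that run cannot show how the procedure performs on them. Named genes are, in each fit and direction, up to 10 genes called or of smallest unadjusted p, with a mean of at least 1 CPM and no overlap, up to 15 genes DESeq2 called in each, Daam1, and from each of 24 lists the 3 most abundant and the 2 of smallest unadjusted p; other list members were named after their values were seen. The members and lists were chosen with earlier results of these data known. WT and KO lines that share a number are different lines and were not paired; treated KO and KO vehicle share lines, per the labels, and were also fitted with the line as a block.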

Additional observations from a re-analysis of the deposited data

How the results depend on the processing

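The count of genes passing adjustment moved with the tool. With all 12 libraries it was 0 in edgeR under every normalisation, filter and left-out library tried, 17 in DESeq2 and 1 with limma sample weights. Without treated KO library 3 it was 0 in edgeR, 26 in DESeq2, 1 with limma sample weights, 1 with a mean of at least 1 CPM and 1 with no filter; leaving out 1 more library gave 0 to 1 (1 without KO vehicle library 3). Each count of 1 was Col25a1. With the replicate number as a block (replicate block), 0 genes passed in both fits, and 282 had an unadjusted p below 0.05 with library 3, against 389 without the block, and 564 against 797 without library 3. Leaving out 1 library moved the number with an unadjusted p below 0.05 to between 223 (without WT vehicle library 1) and 1474 (without treated KO library 2), and, without library 3, to between 269 (without treated KO library 2) and 1160 (without WT vehicle library 3); a treated KO library left alone is assumed to vary like the other groups. Genes with an interval inside a factor of 2 ranged from 6243 to 12130, and from 9446 to 12338 without library 3. For treated KO against KO vehicle, where the same lines gave both groups, a replicate block by cell line, chosen after seeing the data, gave 0 genes passing in edgeR (256 at an unadjusted p below 0.05 with library 3, 520 without it); Bnip3 with library 3 was -0.09, against 0.04 with no replicate block, and Col3a1 without it 1.05 against 0.48. For same-numbered WT and treated KO libraries, the r of deviations from group means was 0.177, -0.804 and -0.744 for numbers 1 to 3. WT library 2 and treated KO library 3, which both stood off, had an r of 0.75. These libraries weigh on all such values, so the values cannot decide whether libraries that share a number form pairs. When 1 library was left out, Daam1 ranged from -0.51 to 0.086 (log2 fold change, 12 libraries). Without library 3, leaving out 1 more gave ranges of -1.48 to 0.33 for Ptbp1, -4.14 to 0.79 for Cenpf, -1.91 to 0.29 for Tyms, -0.046 to 0.38 for Mbp, -1.21 to 0.28 for Kdr and -2.75 to 0.82 for Csf1r. The high end of Ptbp1, Cenpf, Tyms, Kdr and Csf1r is the fit without WT library 2. Limma sample weights gave 0.17 for Kdr and 0.10 for Csf1r, against -0.86 and -1.37 in edgeR. The causes were not tested.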

Other observations

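Other gene groups also separated the libraries. Otx2 and Six3, homeobox genes of the forebrain and eye, were higher in treated KO in DESeq2 with library 3 (adjusted p of 0.0349 each). Otx2 was at 0, 0 and 0 CPM in WT and 0.281, 0.0289 and 4.49 CPM in treated KO, at least 43.8-fold higher against a floor of 3 counts over the WT group. Six3 was at 0.0344, 0.0389 and 0.0653 CPM in WT and 0.438, 0.26 and 3.66 CPM in treated KO, 30-fold higher (95% counting interval 11.5 to 112), and 7.37-fold higher (2.52 to 29.3) without library 3. Library 3 carries most of the Otx2 and Six3 counts.

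Of the autonomic and peripheral neuron markers, 8 of 11 were tested, with a median log2 fold change of -0.848 with library 3 and -0.847 without it. With library 3, 2 were higher and 6 lower, and without it 0 were higher and 8 lower. The 2 were Gata3 and Prph. Gata3 was at 0.447, 0.74 and 0.294 CPM in WT and 0.156, 0.173 and 6.93 CPM in treated KO. Prph was at 11.2, 12.8 and 4.93 CPM in WT and 12, 4.28 and 15.2 CPM in treated KO. Slc6a2, the noradrenaline transporter, was at 1.96, 12.2 and 2.15 CPM in WT and 0.875, 0.173 and 0.414 CPM in treated KO, and DESeq2 called it with library 3 (adjusted p of 0.0261) and not without it (0.0717). Phox2a, a transcription factor of noradrenergic neurons, was at 4.3, 2.88 and 4.02 CPM in WT and 2.75, 1.24 and 0.382 CPM in treated KO, without overlap. Th and Dbh, the enzymes of noradrenaline synthesis, were each at or below 0.313 CPM in all 6 libraries.

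Olig1 and Olig2, transcription factors of the oligodendrocyte lineage, were high in library 3 alone among the 6 (5 of 7 markers tested, median log2 fold change 0.238, and 0.179 without it): Olig2 was at 0.86, 0.74 and 0.294 CPM in WT and 1.03, 0.665 and 11.9 CPM in treated KO. Sox10 and Mog, other markers of that lineage, were at or below 0.286 CPM in all 6 libraries.

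Other cell types had few markers above the filter. Of 5 endothelial markers, the median was 0.751 with library 3 and -1.19 without it. Flt1, Tek, Kdr and Cdh5 were higher with library 3 and lower without it; Flt1, a VEGF receptor, was at 7.91, 80.5 and 3.26 CPM in WT and 17.7, 1.68 and 221 CPM in treated KO. Pecam1, an adhesion protein of endothelium and the only one of the 5 lower in both fits, was at 0.998, 0.701 and 0.881 CPM in WT and 0.5, 0.578 and 0.254 CPM in treated KO, without overlap and called by no tool. Of 2 microglia markers, the median was -0.635 and -1.56, and Csf1r, the receptor that microglia depend on, was at 0.963, 8.06 and 0.424 CPM in WT and 1.97, 0.463 and 12.9 CPM in treated KO. Of 4 pluripotent cell markers, the median was 0.345 and -1.41, and Dppa5a was at 0.998, 3.86 and 0.653 CPM in WT and 0.313, 0.347 and 4.49 CPM in treated KO. In Csf1r and Dppa5a, as in the cell cycle list, WT library 2 and treated KO library 3 were the high ones. Of the other pluripotent cell markers tested, Zfp42 and Lin28a were high in the same libraries, and Esrrb was not. Esrrb was at 15.3, 12.9 and 16.1 CPM in WT and 17.6, 18.9 and 2.23 CPM in treated KO. Tmem119, the other microglia marker tested, was at 0.791, 1.87 and 0.0979 CPM in WT and 0.0625, 0.463 and 0.159 CPM in treated KO.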
